A study of Mus musculus with 4 samples.

Results

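The 2426 regions described here are 5 kb bins of the mouse genome, outside genes, that the authors listed as changed in 5-hydroxymethylcytosine (5hmC) between LSH knockout and wild-type embryonic stem (ES) cells and did not list in mouse embryonic fibroblasts (MEFs). They were chosen by the authors' deposited lists of differential bins. A bin had to be on the ES list, absent at the same position from the MEF list, and free of any gene body and of the 1 kb either side of any gene start. They make up 2426 of the 8545 ES bins on chromosomes 1 to 19 and X, or 28.4% [27.4% to 29.4%], 29.8% of the 8139 ES bins absent from the MEF list, and 0.86% of all intergenic bins. Together they cover 12.13 Mb.

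The study captured 5hmC-bearing DNA fragments from LSH knockout ES cells, wild-type ES cells, LSH knockout MEFs and wild-type MEFs, with 1 library for each of these 4 groups. ES cells are pluripotent cells of the early embryo, grown here in serum with the cytokine LIF, and MEFs are fibroblasts grown from older embryos. The labels name neither the cell line, the clone, the knockout allele nor the age of the embryos. Each list gives the position of a bin and nothing on whether 5hmC was higher or lower in the knockout, so a listed bin is called altered, without a direction. With 1 library a group there is no replicate error on any call. Intervals in square brackets are exact 95% binomial intervals, which cover counting over bins only, and bins are not replicates. The read depth is unknown. No expression was measured, so the identity of the cells could not be checked against marker genes. Hells, the gene that encodes LSH, held 0 bins of either list, and a list of bins cannot check the knockout. The nearest of the intergenic ES-only bins to Hells lay 515 kb away.

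5hmC is made from 5-methylcytosine by the TET dioxygenases. In mammalian DNA nearly all of it lies at CpG dinucleotides, and it is found in gene bodies, at enhancers and around CpG-rich promoters of moderate activity. It can be a step towards unmodified cytosine or persist as a mark of its own. LSH is a chromatin remodeler of the SNF2 family that helps the DNA methyltransferases reach their substrate, and cells lacking LSH lose part of their 5-methylcytosine, above all in repeats. Much of the intergenic DNA that works in ES cells consists of enhancers at a distance from the pluripotency and developmental genes they serve.

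The sequences printed first are the most CpG-dense 300 bases within a bin from 6 places the results turn on. The first 3 come from the ES-only stretches that ranked highest by number of bins and then by shorter span, beside Ppp2r5c, Nsun7 and Foxk1. The other 3 lie next to the pluripotency genes Klf5, Klf4 and Lefty1 and were chosen after their values were seen. All are the forward strand of mm9 (NCBIM37), and CpG dinucleotides are in capitals.
Ppp2r5c (chr12:111666170-111666469): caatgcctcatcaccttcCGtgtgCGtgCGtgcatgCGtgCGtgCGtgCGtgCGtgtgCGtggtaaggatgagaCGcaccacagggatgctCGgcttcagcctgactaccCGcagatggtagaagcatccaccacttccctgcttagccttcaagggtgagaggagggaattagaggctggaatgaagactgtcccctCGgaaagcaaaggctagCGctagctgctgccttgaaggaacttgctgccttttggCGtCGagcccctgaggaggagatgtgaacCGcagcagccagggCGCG
Nsun7 (chr5:66614302-66614601): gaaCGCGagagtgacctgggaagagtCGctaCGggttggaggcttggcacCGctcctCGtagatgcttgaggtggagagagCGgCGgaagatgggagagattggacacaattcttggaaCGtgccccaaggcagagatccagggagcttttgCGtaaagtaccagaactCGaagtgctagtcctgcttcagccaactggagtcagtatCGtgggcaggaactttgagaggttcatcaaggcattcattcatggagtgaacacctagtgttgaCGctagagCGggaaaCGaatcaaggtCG
Foxk1 (chr5:142835188-142835487): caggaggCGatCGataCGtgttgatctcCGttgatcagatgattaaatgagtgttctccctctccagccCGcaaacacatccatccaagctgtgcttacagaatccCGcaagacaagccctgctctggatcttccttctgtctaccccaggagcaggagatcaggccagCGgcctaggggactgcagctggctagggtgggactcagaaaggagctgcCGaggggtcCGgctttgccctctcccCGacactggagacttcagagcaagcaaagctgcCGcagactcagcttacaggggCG
Klf5 (chr14:99716540-99716839): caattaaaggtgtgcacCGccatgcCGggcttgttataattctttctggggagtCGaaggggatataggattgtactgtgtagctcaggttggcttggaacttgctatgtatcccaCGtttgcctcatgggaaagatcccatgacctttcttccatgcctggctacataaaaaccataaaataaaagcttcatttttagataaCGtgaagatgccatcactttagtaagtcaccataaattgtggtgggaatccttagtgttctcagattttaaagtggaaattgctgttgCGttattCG
Klf4 (chr4:55535731-55536030): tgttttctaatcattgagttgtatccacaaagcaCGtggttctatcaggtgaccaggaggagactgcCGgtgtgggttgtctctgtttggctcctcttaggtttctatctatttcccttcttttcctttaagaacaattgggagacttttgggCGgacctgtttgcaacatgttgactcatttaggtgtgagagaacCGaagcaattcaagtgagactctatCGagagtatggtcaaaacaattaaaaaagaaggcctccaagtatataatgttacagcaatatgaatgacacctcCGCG
Lefty1 (chr1:182855752-182856051): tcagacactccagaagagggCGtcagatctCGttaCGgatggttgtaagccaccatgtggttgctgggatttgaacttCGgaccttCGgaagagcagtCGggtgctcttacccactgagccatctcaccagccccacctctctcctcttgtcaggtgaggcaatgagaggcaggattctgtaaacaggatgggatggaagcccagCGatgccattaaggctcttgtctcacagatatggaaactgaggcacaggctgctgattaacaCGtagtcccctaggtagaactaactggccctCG

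The window upstream of Ppp2r5c held 19 CpG and had a GC content of 59.3%. The windows beside Nsun7 and Foxk1 held 16 and 12 CpG. The windows at Klf5 and Klf4 held 7 CpG each and that at Lefty1 held 9. These counts are not compared, because each of the first 3 windows was picked from a stretch of 3 bins and the others from single chosen bins. The Klf5 bin used had 9.2 CpG per kb, and the member touching it in the same stretch had 16.2.

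The intergenic ES-only bins were sparse in the genome as a whole. Intergenic bins make up 55.2% of all bins with sequence, and 0.86% of the 281953 of them were members. The full ES list took 1.67% of the 511186 bins of all classes and 0.907% of the intergenic ones, and the MEF list took 1.22% of the intergenic ones. Since the list itself chose the members, nothing is read from their own share. The nearest comparison set is the 3318 intergenic bins that were listed in MEFs and not in ES cells, or 1.18% of intergenic bins. Bins on both lists were few: 132 of the 2558 intergenic ES bins, or 5.16%, were also on the MEF list.

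Absence from the MEF list concerned the identical bin, and MEF bins did lie close by. Of the 2426 bins, 163 touched a MEF bin (6.72%) and 412 had one within 10 kb (17.0% [15.5% to 18.5%]), against 2.37% and 6.26% of all intergenic bins. Leaving out these 412 left 2014 bins. "ES-only" therefore describes the position of a 5 kb bin and not an altered neighbourhood seen in a single cell type.

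The intergenic ES-only bins were rich in CpG for intergenic DNA. Their median was 11.6 CpG per kb (quartiles 9.4 and 13.8, range 2.6 to 40.8), against 6 in all intergenic bins (quartiles 4.2 and 8.8). Intergenic MEF-only bins had a median of 9.8 and the 132 bins on both lists 12.8. ES-only bins in introns also had a median of 11.6, so CpG density did not set the intergenic members apart from intronic ones. Median GC content was 45.8% in the intergenic ES-only bins, against 40.2% in all intergenic bins and 44.5% in intergenic MEF-only bins. The ratio of observed to expected CpG, which corrects for GC content, had a median of 0.218, against 0.150 and 0.197.

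When all intergenic bins were split into 10 groups of similar size by CpG density, the altered share increased steeply towards the dense end. In the sparsest group, with at most 3.2 CpG per kb, 4 bins or 0.0118% were ES-only. In group 5 the number was 47, or 0.168%. Groups 8 and 9 held 336 and 727, or 1.36% and 2.45%. The densest group held 1006, or 3.79% [3.56% to 4.03%]. MEF-only bins had a different course, with 0.151% in the sparsest group, 3.15% in group 9 and 3.03% in the densest. The ES-only share lay under the MEF-only share in groups 1 to 9 and above it in group 10. The list does not say in which bins a change could have been detected. A greater share of altered bins among CpG-dense ones and a greater chance of capturing 5hmC there cannot be told apart.

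**Figure D1:**
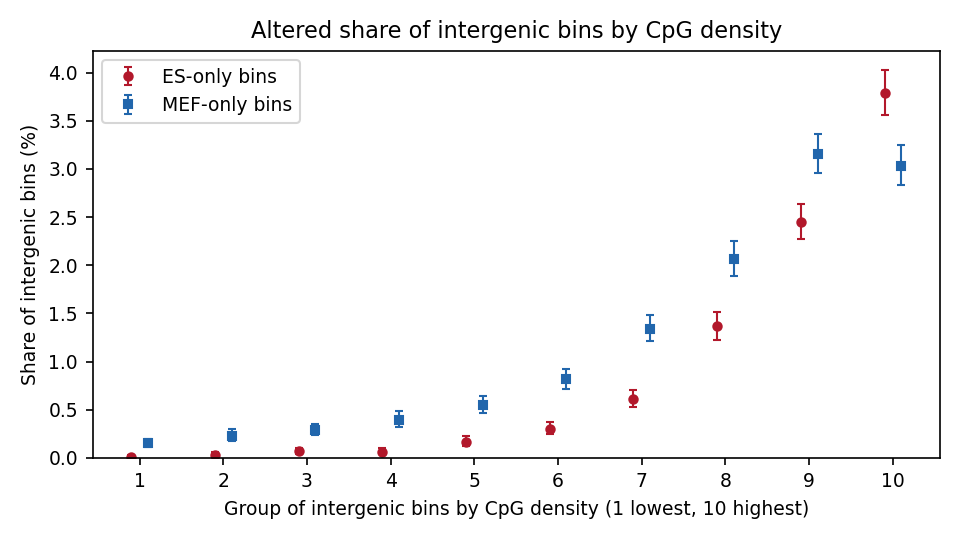
Share of intergenic bins (%, vertical axis) that were ES-only (red circles) or MEF-only (blue squares) altered bins in 10 groups of CpG density from sparsest to densest (horizontal axis), with exact 95% binomial intervals as bars. The ES-only share climbed to 3.79% in the densest group, while the MEF-only share was 3.15% in group 9 and 3.03% in group 10.

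CpG islands are stretches in which CpG has not been depleted, most of them at gene starts. A 200-base window with GC content over 50% and an observed to expected ratio over 0.6 lay in 1141 of the 2426 bins (47.0% [45.0% to 49.0%]). The share was 18.2% in all intergenic bins, 31% in intergenic MEF-only bins and 40.8% in intronic ES-only bins. In the 132 intergenic bins on both lists it was 50.8%. Within the CpG groups the order turned, and the ES-only bins had the lower share in each of the 10. In the 3 densest groups 19%, 38.9% and 76.3% of the ES-only bins held such a window, against 25.1%, 43.5% and 80.9% of all intergenic bins. In groups 5 to 7 the shares were 2.13% against 5.89%, 5.68% against 9.74% and 11.6% against 15.1%. At like CpG density the ES-only bins were therefore not richer in island windows than the rest, though the sparsest groups held few ES-only bins.

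Repeated DNA was scarce among the members. The median share of 32-base words with a second copy elsewhere in the genome was 4.62%, against 8.79% in all intergenic bins and 3.33% in intergenic MEF-only bins. Only 3 of the 2426 bins consisted of repeated words for more than 50% (0.124%), against 13.9% of all intergenic bins. Reads from repeated DNA are hard to place. Whether 5hmC changed in repeats, where LSH loss is best known to act, was not tested by these lists.

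The intergenic ES-only bins lay close to genes for intergenic DNA. Their median distance to the nearest gene body was 21.0 kb (quartiles 7.49 and 57.5 kb), against 78.4 kb in all intergenic bins (quartiles 20.4 and 249 kb) and 34.7 kb in MEF-only ones. Within 10 kb of a gene body lay 746 (30.8% [28.9% to 32.6%]), against 15.0% of all and 21.2% of MEF-only bins. Within 100 kb lay 2075 (85.5%), against 55.1% and 77.4%. The 132 intergenic bins on both lists were much like the ES-only bins. Their median distance was 22.6 kb, with 27.3% within 10 kb and 89.4% within 100 kb. The range was wide, from 8 bases to 1843.55 kb, and 20 bins were more than 500 kb from any gene. The median distance to the nearest gene start was 31.8 kb, against 104 kb in all intergenic bins and 48.5 kb in MEF-only bins.

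By distance, the ES-only share of intergenic bins was 1.87% in the first 5 kb from a gene body [1.70% to 2.05%], 1.57% at 10 to 20 kb, 0.821% at 50 to 100 kb and 0.0619% beyond 500 kb. The MEF-only share did not peak next to genes: it was 1.61% in the first 5 kb, 1.80% at 10 to 20 kb and 1.77% at 20 to 50 kb. The ES-only share was 1.25% at 20 to 50 kb. CpG density moved with distance. All intergenic bins had a median of 7.8 CpG per kb in the first 5 kb and 4.2 beyond 500 kb, and the ES-only bins 12 and 7.9. Within the densest CpG group, 34.2% of ES-only bins were within 10 kb of a gene, against 25.2% of all bins of that group. In groups 8 and 9 the shares were 32.1% against 21.0% and 27.8% against 23.7%. The nearness to genes was thus also seen among bins of like CpG density, by a smaller margin than in all bins.

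**Figure D2:**
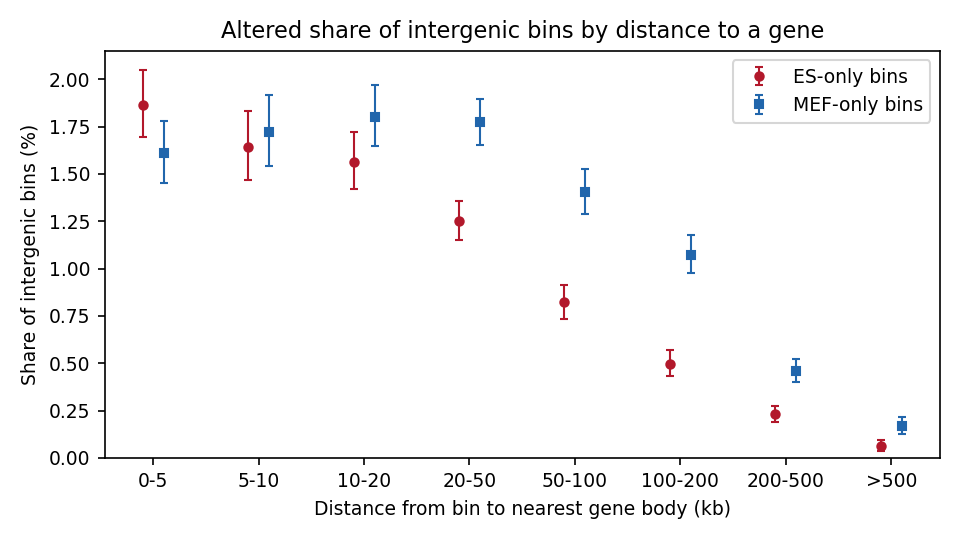
Share of intergenic bins (%, vertical axis) that were ES-only (red) or MEF-only (blue) altered bins, by distance to the nearest gene body in kb (horizontal axis), with exact 95% binomial intervals. The ES-only share was highest in the first 5 kb at 1.87%, and the MEF-only share was highest at 10 to 20 kb at 1.80%.

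The side of the gene made little difference. The bin lay upstream of the nearest gene in 1160 cases (47.8% [45.8% to 49.8%]), against 48.1% of all intergenic bins. The flanking genes pointed away from each other in 24.5%, towards each other in 24.9% and the same way in 50.4%, against 22.8%, 26.1% and 50.7%. With the nearest gene taken by its start, 65.0% lay upstream, against 60.6% of all intergenic bins and 65.1% of MEF-only ones. The nearest gene was protein-coding for 84.8% and a lincRNA for 6.22%, against 86.3% and 4.82%. The bins lay in DNA that was gene-rich relative to other intergenic bins. The median number of gene starts within 100 kb was 2, against 0 for all intergenic bins and 1 for MEF-only bins. The gene-free interval around the bin had a median length of 116 kb, against 431 kb and 172 kb. In the 132 intergenic bins on both lists the 2 medians were 2 gene starts and 104 kb.

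The nearest gene was often altered itself. For 794 bins (32.7% [30.9% to 34.6%]) the nearest gene held an ES-listed bin in its body or within 1 kb of its start, against 15.7% of all intergenic bins and 27.6% of MEF-only ones. For the intergenic bins on both lists the share was 37.9% [29.6% to 46.7%]. A listed ES bin touched 206 of the bins (8.49% [7.41% to 9.67%]), against 1.85% of all intergenic bins. It also touched 5.36% of intergenic MEF-only bins and 8.33% of the 132 intergenic bins on both lists. Among the neighbours of the intergenic ES-only bins, 166 of the bins touched another intergenic ES bin, 28 a promoter bin and 15 an exon bin.

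Most of the intergenic ES-only bins stood alone. When bins with gaps of at most 10 kb were joined, there were 2230 stretches, of which 2053 held a single bin, 158 held 2 and 19 held 3. No stretch held more. The shortest of the 19 spanned chr12:111660001-111675000, 3 touching bins that began 10.5 kb upstream of Ppp2r5c, a gene for one of the regulatory subunits of the phosphatase PP2A. Its bins had 12.8, 19.2 and 16 CpG per kb. The gene-free interval holding them runs to Dio3, the imprinted gene of the enzyme that inactivates thyroid hormone. It held 3 further ES-only bins, so that 6 of its 32 bins were members (18.8%) and 0 were MEF-only. Over all intergenic bins these shares were 0.86% and 1.18%. The interval was picked for its stretch, and nothing is read from a count of 0 in 32 bins. One of the further bins, chr12:111610001-111615000, was the densest of the 6 at 20.4 CpG per kb, and the bin nearest to Dio3 at chr12:111555001-111560000 had 13.4.

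The next 8 stretches of 3 bins spanned 20 kb each. One lay at chr5:66595001-66615000, between Gm16885 and Nsun7, a member of the NOL1/NOP2/Sun family of RNA methyltransferase genes, with 8.4, 11.2 and 16.2 CpG per kb. The next, at chr5:142835001-142855000, lay 22.5 to 37.5 kb upstream of the forkhead factor gene Foxk1. The stretch at chr6:121110001-121130000 lay 3.68 to 18.7 kb upstream of Pex26, needed for peroxisome assembly, and its outer bin touched a MEF bin. Those on chromosome 8 lay 13 to 28 kb upstream of the acrosomal protein gene Spaca7 (chr8:12540001-12560000) and 8.08 to 23.1 kb upstream of Tacc1, which encodes a centrosomal coiled-coil protein (chr8:26320001-26340000). The remaining ones lay 51.5 to 66.5 kb upstream of Hmga2, the gene of a chromatin architectural protein (chr10:119965001-119985000), and 9.53 to 24.5 kb upstream of 4930519A11Rik (chr12:12880001-12900000). The stretch at chr14:99715001-99735000 lay 2.38 to 17.4 kb downstream of Klf5. The tenth stretch, at chr3:30600001-30625000, lay between Lrrc31 and the retinal repressor gene Samd7, 1.24 kb from Lrrc31 at its nearest.

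The bins were spread over many genes. They had 1902 different nearest genes, or 11.1% of the 17179 genes that are nearest to any intergenic bin. A single bin belonged to 1528 of these genes, 2 bins to 279, and 5 or more to 11. Of the 1902, 599 also held an ES bin of their own. The same count was not made over the 17179 genes, so nothing is read from it. Genes in wide deserts can collect more bins because they have more intergenic DNA, so for the 10 genes with the most bins the number of intergenic bins nearest to each is given beside the count.

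The genes nearest to the most ES-only bins were Med13l, Gm2301 and 4930448E22Rik, with 7 each. Med13l encodes a subunit of the kinase module of Mediator. It had 5 bins upstream and 2 downstream, 20.7 to 345 kb away, out of 112 intergenic bins nearest to it (6.25%). Gm2301, a processed transcript model that overlaps the start of the T-box factor gene Tbx3, had 7 of 84. Tbx3 is on the pluripotency list described below. It was not the nearest gene of any ES-only bin, by gene body or by gene start. The interval between Med13l and Gm2301, chr5:119215445-120061271, held 9 ES-only bins among 168 (5.36%) and 1 MEF-only bin. The interval on the other side of Med13l held 8 among 57 (14.0%) and 4 MEF-only bins. Over all intergenic bins the MEF-only share was 1.18%. The lincRNA gene 4930448E22Rik had 7 of 120, all upstream and 87.5 to 583 kb away.

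Next came Gm16767 with 6 of 64 and Gm10655 with 6 of 48. Within 10 kb of a MEF bin lay 3 and 5 of these, beside 17.0% of all members. The rest of the 10 genes had from 0 to 2 such bins. Tacc1 had 5 of 36 (13.9%), all upstream. Hs6st1, which encodes an enzyme that sulfates heparan sulfate, had 5 of 121. The interval that ends at Hs6st1 held 8 ES-only bins among 236 and 1 MEF-only bin, beside 1.18% MEF-only over all intergenic bins. Gm5083 had 5 of 91 and Gm17697 had 5 of 64. The interval between Gm5083 and Jarid2, a cofactor gene of Polycomb repressive complex 2, held 7 ES-only bins among 119 but 10 MEF-only bins.

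Sox2ot also had 5 bins, of 108, all downstream and 83.5 to 438 kb away. The Sox2ot model contains Sox2, the gene of a core pluripotency factor. By gene start Sox2 was the nearest gene for these 5 bins, at chr3:34665001-34670000, chr3:34710001-34715000, chr3:34720001-34725000, chr3:34730001-34735000 and chr3:35020001-35025000. They lay 116, 161, 171, 181 and 471 kb from its start and had 11, 13.6, 11, 12.8 and 9.6 CpG per kb. A distal enhancer of Sox2 in mouse ES cells lies downstream of the gene on the same side, and overlap with it was not tested. No MEF bin lay in the mapped window of 561 kb around Sox2. Over the genome 1.22% of intergenic bins were on the MEF list, so nothing is read from this absence.

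**Figure D3:**
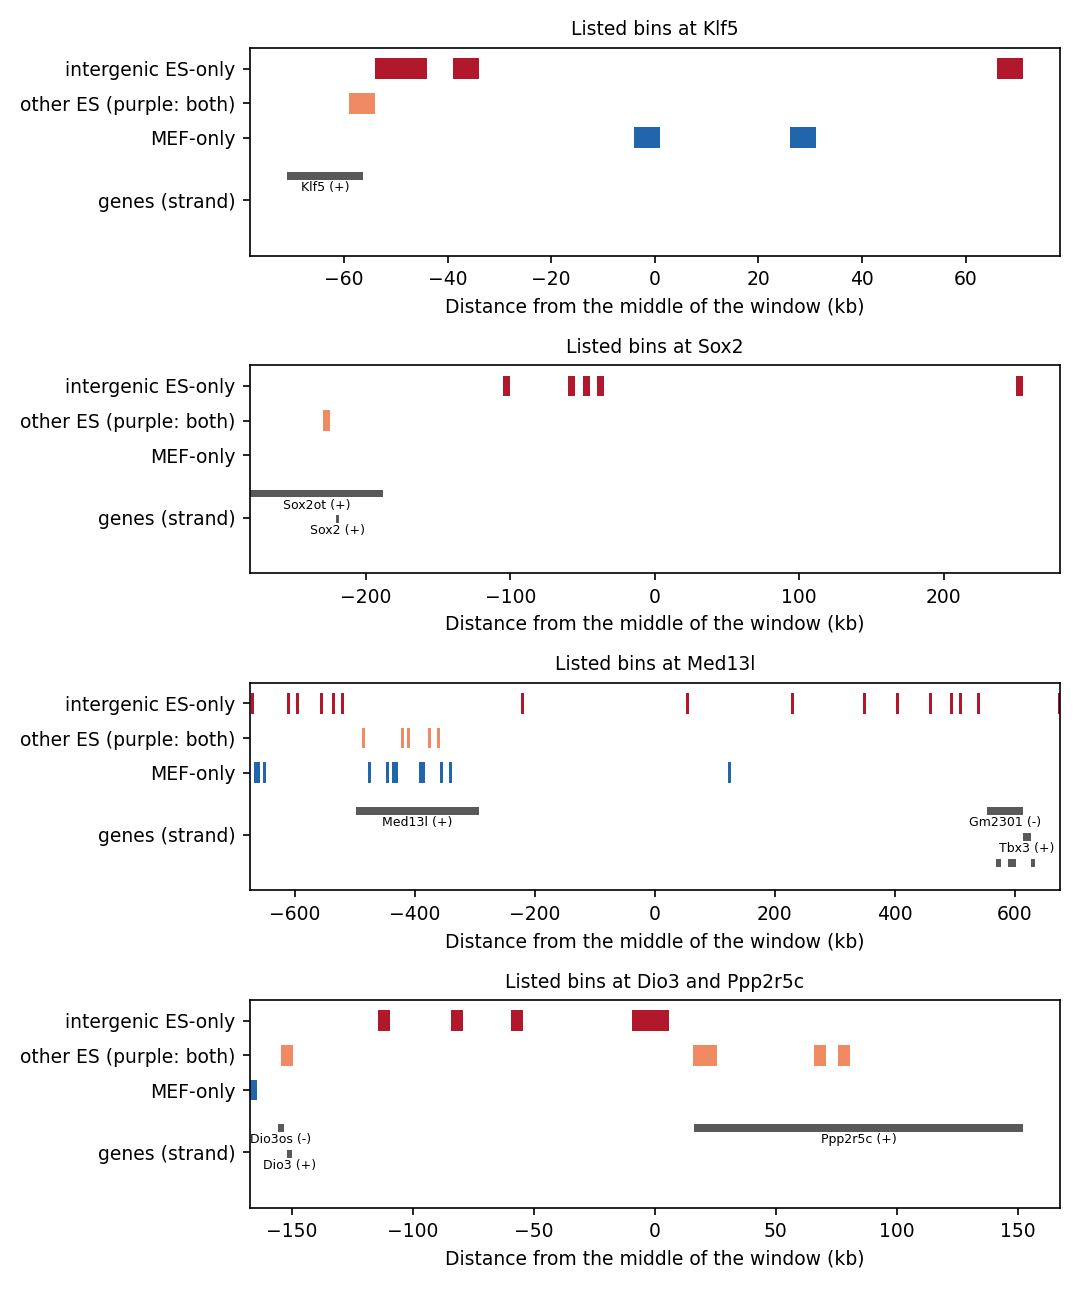
Altered bins around Klf5, Sox2, Med13l, and Dio3 with Ppp2r5c, as distance in kb from the middle of each window (horizontal axis); rows show intergenic ES-only bins (red), other ES bins (orange, or purple where also on the MEF list), MEF-only bins (blue) and gene bodies (grey, only genes named in the text labelled). The windows held 4, 5, 16 and 6 intergenic ES-only bins, and 2, 0, 12 and 1 MEF-only bins.

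Genes were then grouped by role. Each list is described by the share of the intergenic bins nearest to its genes that were ES-only, beside 0.860% for all genes. These shares are descriptions of gene neighbourhoods, and no test was made of them. The intervals of the Hox, signalling, imprinted, germline, fibroblast and Zfp lists held the 0.860% of all genes.

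Among 35 pluripotency genes, 8 were nearest to an ES-only bin. These 8 genes accounted for 18 of the 705 intergenic bins nearest to the list, or 2.55% [1.52% to 4.01%]. Among the bins of the 3 densest CpG groups the numbers were 14 of 316, or 4.43% [2.44% to 7.32%], an interval that held the 2.56% of all genes. Of the 18 bins, 0 lay within 10 kb of a MEF bin, beside 17.0% of all members. Klf5, a Krüppel-like factor gene of the self-renewal network, had 4 of its 59 bins, 2.38 to 122 kb downstream. Klf4, its relative and a reprogramming factor gene, had 2 of 8, at 12 bases and 25 kb from its end. Lefty1, the gene of a secreted inhibitor of Nodal, had both of its 2 intergenic bins, touching each other at 5.15 and 10.2 kb upstream.

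Otx2, the gene of a homeodomain factor of primed pluripotency and the anterior brain, had 4 of 48, at 47.4 to 143 kb. Nr5a2, the gene of an orphan nuclear receptor that can replace OCT4 in reprogramming, had 3 of 108, 213 to 243 kb upstream. The remaining 3 bins were single ones at Tdgf1, the Nodal co-receptor gene, at 2.11 kb, at the naive-state marker gene Zfp42 at 17.6 kb and at Tcfcp2l1 (now called Tfcp2l1), a naive pluripotency factor gene, at 28.3 kb. When genes were assigned by start, Klf5 had 5 bins and Sall4 had 2, beside the 5 of Sox2 already given.

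Developmental regulators, the transcription factor genes that pattern the embryo, formed a longer list. Of 105 found in the annotation, 27 were nearest to an ES-only bin, with 42 of 2867 bins (1.46% [1.06% to 1.98%]). In CpG-dense bins the share was 3% [2.13% to 4.09%], an interval that held the 2.56% of all genes. Of the 42, 27 held a CpG island window, beside 47.0% of all members. Within 10 kb of a MEF bin lay 6 of the 42, a share near the 17.0% of all members. Six2, a gene of kidney progenitors, had 4 of 34 and Zfhx3 had 4 of 122. En1, the midbrain and limb homeobox gene, had 3 of 56. Msx1 had 2 of 29 and Sox21 had 2 of 6. Of 39 Hox genes, whose clusters leave few intergenic bins, Hoxd1 alone was nearest to an ES-only bin, with 1 of the list's 30.

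Of 73 genes for signalling ligands, receptors and their modulators, 16 were nearest to a bin, with 19 of 1574 (1.21%). Bmp7 had 3 of 33 and Wnt11 had 2 of 14. Shh, the hedgehog ligand gene, had 1 of its 3. Fgfr4 had 1 of 4 and Wnt4 1 of 12. Of the 19, 5 lay within 10 kb of a MEF bin, beside 17.0% of all members.

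Among 32 genes for DNA methylation and LSH partners, 6 had a bin, or 6 of 238 (2.52% [0.931% to 5.41%]), and each had 1. With the nearest gene taken by its start, the share was 1.75% [0.646% to 3.78%], an interval that held the share of all genes. In CpG-dense bins it was 5 of 98, or 5.10% [1.68% to 11.5%]. That interval held the 2.56% of all genes. The bin at Gadd45b, a stress gene linked to DNA demethylation, lay 51 bases from the gene and had 28.8 CpG per kb. Dnmt3a, the de novo methyltransferase gene, had its bin at 15.6 kb. The others were Mbd2 at 2.84 kb, Zbtb38 at 8.18 kb, Cdca7l at 32.3 kb and Hdac2 at 48.3 kb. Mbd2 and Zbtb38 encode readers of methylated DNA, Cdca7l is a relative of the LSH partner gene Cdca7, and Hdac2 encodes a histone deacetylase.

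Of 45 imprinted genes, 5 were nearest to a bin, with 6 of 558 (1.08%). Dio3 had 2, and Nespas, Mest, Peg3 and Mirg had 1 each. Of these 6 bins, 3 lay within 10 kb of a MEF bin, beside 17.0% of all members. Among 32 germline genes Piwil4 had 2 and Dazl 1, out of 147 (2.04% [0.423% to 5.85%]). With the nearest gene taken by its start, the list had 1 of 112 (0.893%). Fibroblast and matrix genes had 7 of 524 (1.34% [0.539% to 2.73%]). Pdgfra had 2, and Col1a1, Loxl1, Twist2, Postn and Col1a2 had 1 each. Of these 7 bins, 3 lay within 10 kb of a MEF bin, those at Col1a1, Loxl1 and Col1a2, beside 17.0% of all members. Nothing is read from so few bins. The Zfp genes, a large family that encodes zinc finger proteins, had 27 of 2655 (1.02%), with 3 each at Zfp64 and Zfp326 and 2 each at Zfp423, Zfp516 and Zfp536.

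Olfactory and vomeronasal receptor genes, which lie in AT-rich clusters and are normally used in sensory neurons, stood at the other end. Of 1439 genes, 2 were nearest to an ES-only bin, Olfr365 and Olfr1341. They accounted for 2 of 7271 bins (0.0275%). Among CpG-dense bins alone the share was 1 of 1214 (0.0824%), against 2.56% for all genes.

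**Figure D4:**
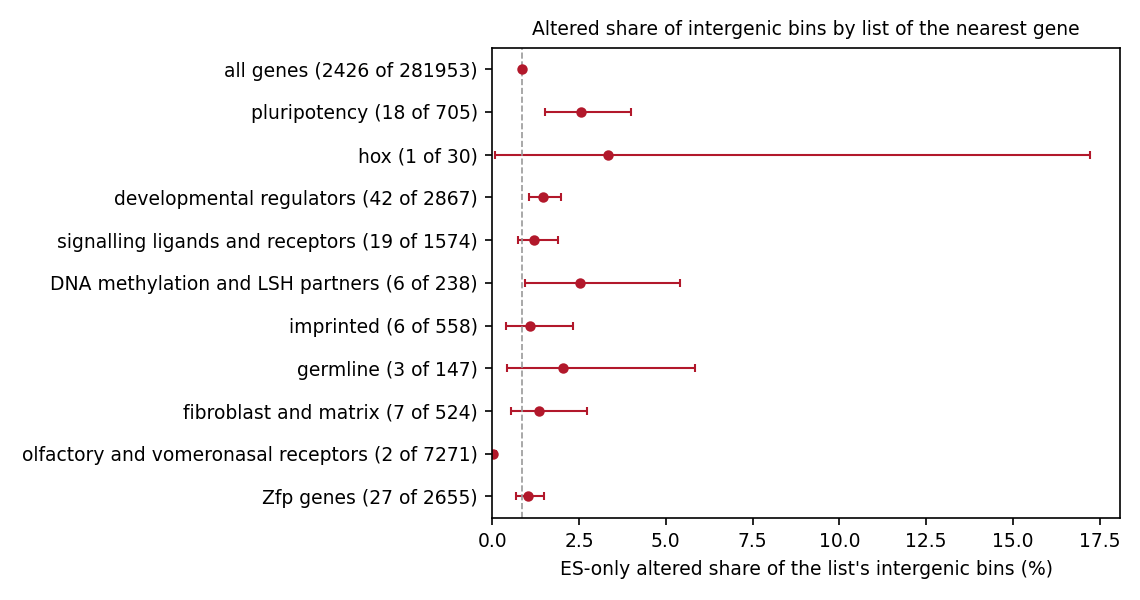
Share of the intergenic bins nearest to the genes of each list (%, horizontal axis) that were ES-only altered bins, with exact 95% binomial intervals and, in brackets, the counts behind it; the dashed line marks all genes at 0.860%. The pluripotency list stood at 2.55% and the olfactory and vomeronasal list at 0.0275%, and the Hox list rested on 30 bins.

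The X chromosome held almost none of the intergenic ES-only bins. It had 6 among 21654 intergenic bins (0.0277% [0.0102% to 0.0603%]), against 2420 among 260299 on the autosomes (0.930%). In CpG-dense bins alone it had 4 of 2998 (0.133%), against 2.65% on the autosomes. MEF-only bins were also few on X, with 28 or 0.129%, against 1.26% on the autosomes. The X-linked bins were 2 at Bcor, a Polycomb-linked corepressor gene, at 38.9 and 62.5 kb, and 1 each at Chic1, Mtap7d2, Gm1720 and Gm4906. The labels give no sex for the cells, and coverage of X in the libraries is unknown. The part of either in the low share was not tested.

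Among autosomes the share ran from 0.633% on chromosome 3, with 127 bins, to 1.58% on chromosome 11, with 158. Chromosome 5, which carries the bins around Med13l, had the most at 206 (1.36%). On chromosomes 19 and 15 the ES-only share was 1.18% and 0.812%, against a MEF-only share of 3.15% and 2.39%.

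**Figure D5:**
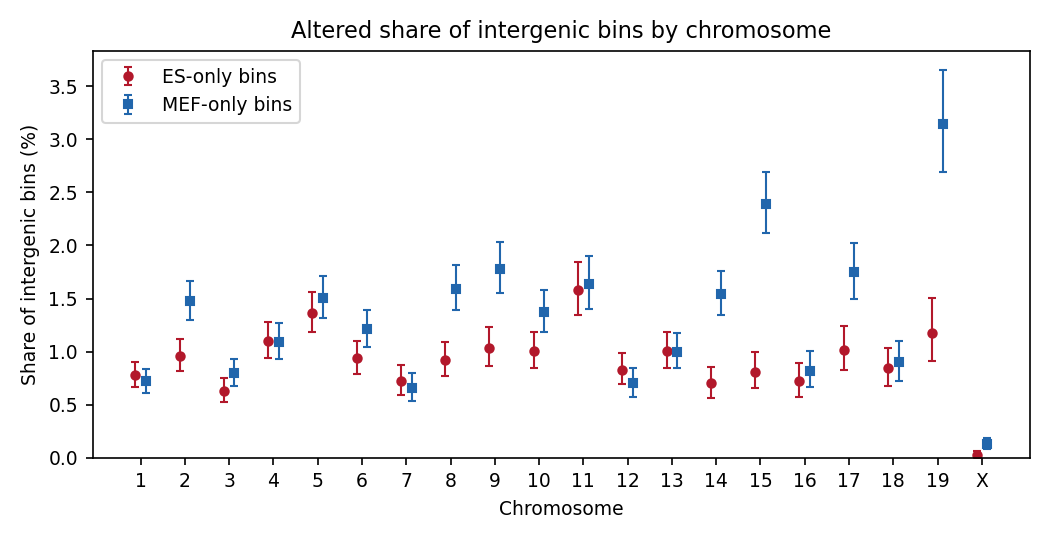
Share of each chromosome's intergenic bins (%) that were ES-only (red) or MEF-only (blue) altered bins, for chromosomes 1 to 19 and X. The ES-only share ran between 0.633% and 1.58% on the autosomes and was 0.0277% on X.

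The bins at the edges of the rule show how it worked. Just inside it, a bin lay 8 bases from Ccr6, another 12 bases from Klf4 and the third 30 bases from Opa1. Just outside it, ES-only bins overlapped Znrf1 by 4 bases, Rapgefl1 by 11 and Far1 by 25. A further 62 ES-only bins lay outside it through the gene-start window alone. At the far end, the bin at chr8:52450001-52455000 lay 1843.55 kb from its nearest gene, 4930555F03Rik, and had 3.4 CpG per kb. The next farthest were nearest to Stim2, Dsc3, Aga and Pkdcc, at 1358, 1119, 857 and 770 kb.

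Some of the bins hold models that the rule did not count as genes. At least 1 such model lay in 81 bins (3.34%), against 2.57% of all intergenic bins. Pseudogenes lay in 42 (1.73%, against 1.71%). MicroRNA models lay in 15 (0.618% [0.346% to 1.02%]), against 0.195% of all intergenic bins and 0.211% of MEF-only ones. These 15 bins held 17 such models, and the share was not compared at like CpG density or distance to genes. The 10 small RNA models first by position were SNORA17 copies near Tpp2 and Lrrn2, U6 copies near Gm13589 and Selenbp1, a U1 copy near Cdc14a, and the microRNA models AL928544.2, AL844882.1, Mir296, Mir298 and AL691478.1. Mir296 and Mir298 share chr2:174090001-174095000, 11.7 kb from the imprinted transcript Nespas. Mir29a and Mir29b-1, microRNAs known to target DNA methyltransferase transcripts, shared chr6:31010001-31015000, a bin with 16.2 CpG per kb. Mir7-2 lay in a bin 5.74 kb from Aen. The last 3 were named after their values were seen.

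Short sequence words were searched on both strands. The octamer ATGCAAAT, bound by OCT4, lay in 675 of the bins (27.8%), against 39.9% of all intergenic bins. In CpG groups 8, 9 and 10 the shares were 28.9% against 34.4%, 25.7% against 28.6% and 27.3% against 24.7%. The E-box CACGTG, which contains a CpG, lay in 55.1% against 33.8%. In groups 8 to 10 it lay in 53.3% against 46.6%, 56.4% against 51.3% and 58.9% against 54.8%. The ZFP57 word TGCCGC, which contains a CpG, lay in 37.8% against 19.09%, and in groups 8 to 10 in 26.2% against 26.6%, 36.7% against 34.6% and 48.2% against 51.6%. For these 3 words the difference from all intergenic bins was smaller within each of these 3 groups than overall. For the octamer and the ZFP57 word its sign varied among the groups. The octamer lay in 26.9% of intergenic MEF-only bins, 28.0% of intergenic bins on both lists and 27.9% of intronic ES-only bins. Its low share was thus common to all these listed sets. In the same 3 sets the E-box lay in 48.6%, 56.1% and 56.2%, and the ZFP57 word in 29.7%, 40.9% and 38.6%. The longer OCT4-SOX2 word, which contains the octamer, lay in 3 bins (0.124%, against 0.0872%). The CTCF core lay in 1.32% against 0.696%, and in 1.15% of MEF-only, 0.758% of both-list and 1.59% of intronic ES-only bins. In groups 8 to 10 it lay in 2.08% against 0.865%, 0.550% against 1.18% and 1.59% against 1.18%. The NRF1 word, which contains CpG, lay in 15 bins or 0.618%, against 0.206% of all intergenic bins and 0.874% of MEF-only ones. In groups 8 to 10 it lay in 0% against 0.231%, 0.275% against 0.425% and 1.19% against 1.02%. A match marks letters in a window and no binding site.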

How the data were processed

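DNA captured with the hydroxymethyl collector kit was sequenced, per the labels. The submitters' processing notes name BWA, SAMtools 1.3.1 and mm9. How differential bins were called, with which threshold, and how reads were counted is not given in the sources used here. Deposited values are of the kind other: start and end positions of 5 kb bins, 8557 for ES cells and 9002 for MEFs. No count, fold or p-value was deposited with them, so the depth per library is unknown.

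Bins on chromosomes 1 to 19 and X were set on NCBIM37 (mm9) with 26195 protein-coding, lincRNA and processed transcript models of GENCODE M1. The end of the last MEF bin of chromosome 13, 120284312, equals that chromosome's length. Bins in which N made up more than 50% of the bases were not used. Distances run from the edge of a bin to the nearest gene body. Repeated words were sampled at 1 in 64. All comparisons are descriptions with no test, and the scripts were tested on simulated data. Where a list names more symbols than were found, the number found is given; 105 of 106 developmental, 45 of 48 imprinted and 32 of 34 germline symbols were found.

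The members and gene lists were chosen with earlier results of these data known. The text names the 10 stretches and the 10 genes with the most bins, the 5 farthest bins, up to 5 genes of each list, the 3 bins on either side of the rule, and small RNA genes by position. Other names, such as Sox2, Tdgf1, Zfp42, Tcfcp2l1, Hdac2, Col1a2, Sall4 and the X-linked genes, were added after their values were seen. Alternatives were the class rule, the gene set, the joining distance, nearby MEF bins and repeated sequence. Python 3.11.15, numpy 2.4.6, pandas 2.3.3, scipy 1.17.1, numba 0.67.0 and matplotlib 3.10.9 were used.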

Additional observations from a re-analysis of the deposited data

Results flagged for a closer look

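The ES list held 12 bins on sequences other than chromosomes 1 to 19 and X. Of these, 2 lay on the mitochondrial sequence and 10 on unplaced or random sequences. They have no gene class and enter no comparison above. The MEF list held 30 such bins.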

How the results depend on the processing

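Of 83 alternative values, 57 stayed within the counting interval of the reported value, or within 1.5 times it for counts, and 26 did not. The number of bins ran from 2014 to 2853 and the median CpG density from 11.4 to 11.8 per kb. With bins classed by midpoint, the ES-only share of intergenic bins was 0.955%, the median distance to a gene 15.2 kb, the share within 10 kb 41.1% and the share whose nearest gene was altered 42.7%. With every biotype counted as a gene, the last 3 were 17.5 kb, 34.6% and 28.0%. With protein-coding genes only, the 4 were 0.903%, 25 kb, 28.0% and 35.1%, and 51.1% of bins lay upstream. With 5 kb around gene starts barred, these 5 were 0.818%, 25.3 kb, 23.6%, 34.8% and 44.0%. By gene start, 65.0% lay upstream and 29.5% had an altered nearest gene. With members near a MEF bin left out, the rest were 0.714% of all intergenic bins, a share that falls by construction. With bins rich in repeated words left out of both the members and all intergenic bins, the share was 1.16%. Joining only touching bins left 1 stretch of 3 or more, and joining within 25 kb gave 46. Within 50 kb of the gene, the list shares were 4.09% for pluripotency, 2.75% for developmental and 1.90% [0.952% to 3.37%] for signalling genes, beside 1.51% for all genes. The interval for signalling genes held that value. The causes were not tested beyond what each alternative changes by its construction. No paired analysis was possible because each group has 1 library. For the same reason no replicate could be left out. The lists hold no level, so neither the size nor the direction of any 5hmC change can be given.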

Other observations

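The ES list runs in 3 to 5 ascending blocks per chromosome, while the MEF list runs in a single block. The meaning of the blocks is not given in the sources used here. Counted from the end of each chromosome, the last blocks held 5923 bins, of which 1688 were intergenic ES-only bins (28.5%). The blocks before them held 2266 bins with 643 (28.4%), then 304 with 85 (28.0%), 51 with 10 (19.6%) and 1 with 0.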
